A study of Mus musculus with 19 samples.

Results

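Fatty acid oxidation and ketone body synthesis were followed through 38 genes in the livers of mice before pregnancy, in lactation and after weaning. The genes were chosen by symbol, one row each among the 51826 gene entries of the expression table, and they encode fatty acid uptake and activation, the carnitine shuttle, mitochondrial and peroxisomal beta-oxidation and, with Acat1 and Bdh1, the first and last enzymes of ketone body synthesis. The strain was Balbc, and all 19 animals were females aged 12 weeks with no transgene or drug named. They comprised 7 nulliparous mice (NUL), 6 mice at lactation day 10 (LAC) and 6 mice at involution day 6 (ID6), which is 6 days after weaning. Poly(A) RNA from flash frozen liver was sequenced, each mouse gave its own library, and the methods name 2 suppliers of mice without saying which supplied which animal. Values are TPM, the transcripts of a gene per 1000000 transcripts of that liver, a unit that corrects for gene length but keeps no record of sequencing depth.

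In beta-oxidation, a fatty acid is taken up, bound to coenzyme A and shortened from one end, with acetyl-CoA released at each round. Long chains enter mitochondria through the carnitine shuttle, whose first enzyme, Cpt1a, is the main control point of the pathway, whereas very long chains are first shortened in peroxisomes. Liver turns much of the resulting acetyl-CoA into ketone bodies for other organs, and the nuclear receptor PPARα induces many genes of both routes during fasting.

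All 38 genes were abundant enough to be tested. They held 1.55 to 2.71% of all TPM in NUL mice, 1.5 to 2.48% in LAC mice and 1.2 to 1.44% in ID6 mice, so that each ID6 liver lay below every NUL and LAC liver. Fabp1, the fatty acid binding protein of the hepatocyte cytosol, made up much of that share, and without it the shares were 0.748 to 1.21%, 0.679 to 1.11% and 0.652 to 0.807%, which overlapped. Mean levels over NUL mice ran from 10965 ± 3215 TPM for Fabp1 (SD, n = 7) down to 9.14 ± 5.98 for Vnn1, a pantetheinase, and 9.15 ± 3.73 for Pdk4, a kinase that turns off pyruvate dehydrogenase. The methods name caudate lobes as the tissue frozen for RNA, and elsewhere whole liver. This tissue was not sorted into cell types. Fewer cells of a type and less RNA per cell therefore cannot be told apart in any of these values.

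Promoter sequence from RefSeq (GRCm38.p6) was at hand for 31 of the 38 genes. It is printed for the most abundant gene, Fabp1, for Ehhadh, which had the largest difference between ID6 and LAC mice, and for Bdh1, a ketone body enzyme that moved the opposite way. The stretches end before the first annotated exon, read 5′ to 3′ on the strand of the gene, and lie at chr6:71199629-71199826 (plus strand), chr16:21787835-21788084 (minus strand) and chr16:31422047-31422279 (plus strand). Capitals mark a match, on either strand, to a direct repeat of AGGNCA with 1 base of any kind between the copies, the sort of element that PPARα binds with its partner RXR.
Fabp1: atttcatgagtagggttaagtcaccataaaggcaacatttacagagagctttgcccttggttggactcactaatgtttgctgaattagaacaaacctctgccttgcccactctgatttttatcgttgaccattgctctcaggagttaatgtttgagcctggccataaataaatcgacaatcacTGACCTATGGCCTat
Ehhadh: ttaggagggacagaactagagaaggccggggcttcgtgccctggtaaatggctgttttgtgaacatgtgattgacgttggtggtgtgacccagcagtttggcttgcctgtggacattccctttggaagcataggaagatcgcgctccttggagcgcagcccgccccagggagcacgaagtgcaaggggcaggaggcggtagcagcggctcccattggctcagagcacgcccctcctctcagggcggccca
Bdh1: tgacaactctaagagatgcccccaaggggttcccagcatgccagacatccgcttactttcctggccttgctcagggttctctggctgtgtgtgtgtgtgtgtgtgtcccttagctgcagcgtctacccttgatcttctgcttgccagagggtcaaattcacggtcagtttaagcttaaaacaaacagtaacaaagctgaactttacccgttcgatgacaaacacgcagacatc
The search covered 250 bases before to 50 after each RefSeq start, more than is printed. The repeat was found in Fabp1 only among the 31 genes, on the minus strand, 55 to 67 bases before the RefSeq start. Of all 27025 mouse genes with such a promoter, 0.451% hold it. The single half-site AGGTCA, which the repeat can contain, was found in 7 of the 31 genes, namely Acadm, Acadvl, Cd36, Cpt1a, Echs1, Fabp1 and Slc27a2, and in 18.1% of all genes. A match of letters describes the sequence and does not show that a factor binds there.

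The mice carried animal numbers that fell under 200 (3 NUL and 3 LAC) or at 200 and above (4 NUL, 3 LAC and all 6 ID6). No label calls this a batch, but the members separated by it, so each stage comparison was also made with mice numbered 200 and above alone. The summed TPM of 8 hepatocyte markers such as Alb was 60247 to 93805 in NUL, 99818 to 147466 in LAC and 80319.5 to 108724 in ID6 livers. Alb makes up most of this sum, and single markers went both ways, with Alb higher and Cyp2e1 lower in LAC than in NUL, Alb lower and Cyp2e1 and Ttr higher at ID6 than in LAC, and the others not called. Markers of skeletal and heart muscle, at 0.23 TPM or less in the other 14 livers, summed to 298.87 and 54.31 TPM in mice NUL_1 and NUL_4, 9.27 and 19.97 in LAC_102 and LAC_133 and 8.47 in ID6_230. Results are therefore also given without those 5 mice. Summed exocrine pancreas markers were highest in LAC_133 and LAC_36, at 28.17 and 8.79 TPM. Summed adipocyte markers were highest in NUL_1 and ID6_201, at 20.34 and 20.26 TPM. LAC_36 and ID6_201 are not among the 5 mice, and the part of pancreas and adipocyte RNA was not tested.

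The question at lactation was which of these genes differed from the nulliparous liver. In LAC mice, 4 of the 38 genes were lower and 0 higher (limma-trend on log2(TPM + 1), adjusted p under 0.05), while at an unadjusted p under 0.05 6 lay lower and 3 higher. Among all 16230 genes tested, 6.49% were lower and 2.72% higher, so that 10.5% of the members against 6.49% of all genes were lower. The 4 lower genes were Crot and Cpt1a of the carnitine system and both ketone body enzymes of the 38, Bdh1 and Acat1. Of 7 further genes of ketone body synthesis, use and transport, outside the 38, 1 was lower and 0 higher at lactation, with a median log2 fold change of -0.02, and 0 passed from LAC to ID6 or from NUL to ID6 (limma-trend, with 3 at an unadjusted p under 0.05 in each). Among mice numbered 200 and above, 1 of these 7 was higher and 1 lower at lactation, beside 2.65% and 4.48% of all genes. From NUL to ID6, 1 was higher in that range, beside 0.473%. None of the 38 differed by 2-fold as well as passing the test at lactation, beside 0.746% of all genes. Over all 38 the estimates ran from -0.92 to 1.12, with a median of -0.07 beside -0.03 over all genes, and 26 lay below 0 and 12 above. The added 1 TPM pulls the log2 fold changes of weakly expressed genes, such as Vnn1 and Pdk4, towards 0.

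Crot, the peroxisomal carnitine octanoyltransferase that passes shortened chains on to mitochondria, stood between 321 and 491 TPM in NUL mice, with a median of 401, between 184 and 235 in LAC mice, with a median of 215, and between 315 and 398 in ID6 mice, with a median of 347. The means were 411 ± 53.9, 215 ± 19 and 352 ± 30.8 TPM (SD, n = 7, 6 and 6). Every LAC liver lay below every NUL and every ID6 liver, while NUL and ID6 overlapped. Crot fell by 47.6% from NUL to LAC, a log2 fold change of -0.92 (SE 0.09, adjusted p = 4.53e-06).

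Cpt1a, the outer mitochondrial carnitine palmitoyltransferase, stood between 71.5 and 95.4 TPM in NUL mice, with a median of 85.2, between 43.3 and 70 in LAC mice, with a median of 58.7, and between 50.3 and 92.2 in ID6 mice, with a median of 70.1. The means were 86.1 ± 7.68, 57.6 ± 11 and 69.9 ± 14.3 TPM. LAC livers lay below all NUL livers, and ID6 livers spread across both. The difference between LAC and NUL was -0.59 (SE 0.13, adjusted p = 0.00625) on the log2 scale, and that between ID6 and LAC was 0.27 (SE 0.13, adjusted p = 0.148), which did not pass the test.

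Bdh1 encodes the mitochondrial dehydrogenase that makes hydroxybutyrate, the main circulating ketone body, from acetoacetate. Its level stood between 205 and 269 TPM in NUL mice, with a median of 239, between 109 and 149 in LAC mice, with a median of 129, and between 168 and 245 in ID6 mice, with a median of 200.8. The means were 234 ± 21.6, 128 ± 13.8 and 208 ± 29.3 TPM, and the LAC livers again stood apart below both other stages. Bdh1 fell by 45.5% from NUL to LAC, a log2 fold change of -0.87 (SE 0.09, adjusted p = 1.06e-05).

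Acat1, the mitochondrial thiolase that joins acetyl-CoA units into acetoacetyl-CoA, stood between 183 and 275 TPM in NUL mice, with a median of 226.3, between 118 and 157 in LAC mice, with a median of 140.0, and between 161 and 207 in ID6 mice, with a median of 182. Its means were 226.3 ± 27.7, 139 ± 14.9 and 184 ± 17.8 TPM. No LAC liver reached the lowest NUL or ID6 liver. The log2 fold change from NUL to LAC was -0.69 (SE 0.09, adjusted p = 9.94e-05).

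**Figure D1:**
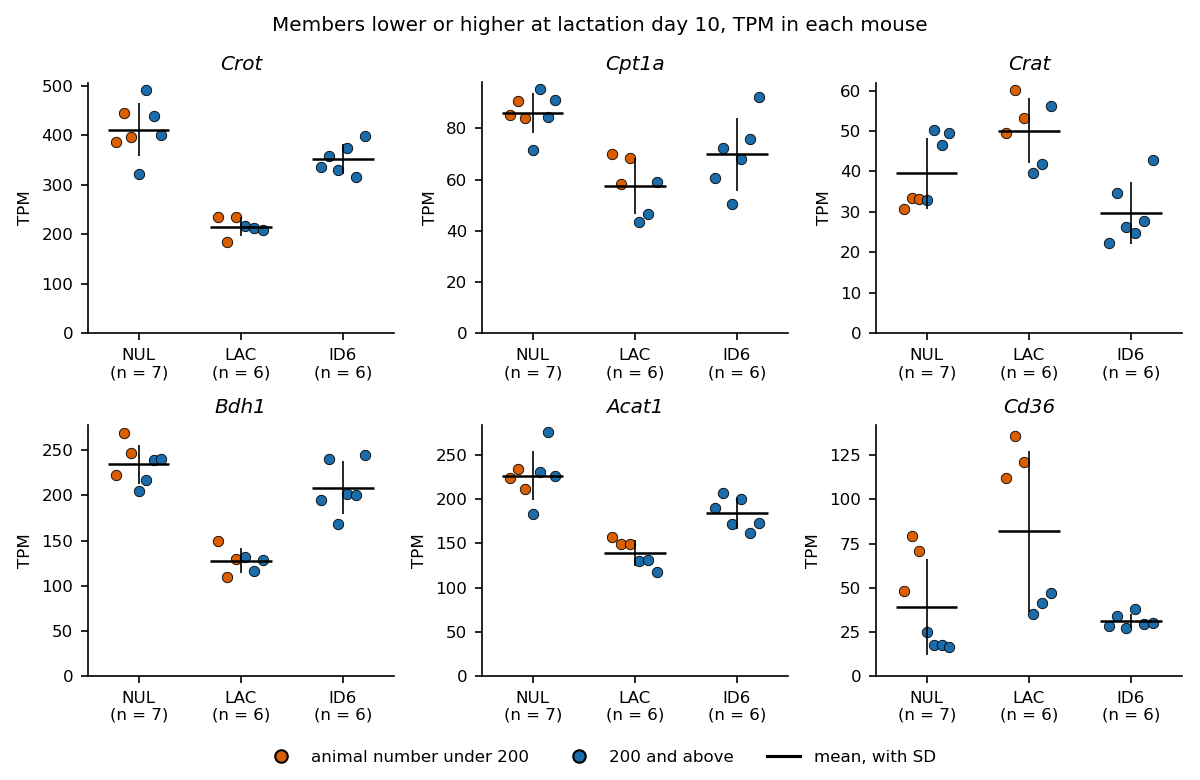
TPM (linear axis from 0) of 6 genes in each mouse, by stage, with orange points for animal numbers under 200, blue points for 200 and above, and lines for the mean with the SD. For Crot, Bdh1 and Acat1 all 6 LAC mice lie below the NUL and ID6 mice in both colours; for Cpt1a they lie below the NUL mice only, and Cd36 separates by colour within NUL and LAC.

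The differences in these 4 genes were present in both ranges of animal number. Among mice numbered 200 and above (3 LAC, 4 NUL, with the 6 ID6 mice also in the fit), the log2 fold changes were -0.94 for Crot, -0.84 for Bdh1, -0.84 for Acat1 and -0.78 for Cpt1a, with adjusted p of 0.000776, 0.0011, 0.00137 and 0.0148. Among those under 200 (3 and 3), they were -0.91 (SE 0.14, adjusted p = 0.00326), -0.93 (SE 0.11, adjusted p = 0.00104), -0.55 (SE 0.12, adjusted p = 0.0147) and -0.40 (SE 0.13, adjusted p = 0.068), of which the last did not pass. The calls of all 4 genes held under each of the 11 alternative settings and with each of the 19 mice left out. The groups did not overlap for these 4 members, a separation found downwards in 2.29% of all genes.

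In the fit of mice numbered 200 and above alone, 2 members were higher and 6 lower in LAC, beside 2.65% and 4.48% of all genes. The further lower ones were Etfdh, which hands electrons from beta-oxidation to the respiratory chain, at -0.36 (SE 0.09, adjusted p = 0.0314), and Vnn1 at -1.28 (SE 0.27, adjusted p = 0.0115). The higher ones were Cd36 and Ehhadh. In the fit over NUL and LAC mice only (limma-trend), further members were also lower at 200 and above. They were Decr2 (-0.34, adjusted p = 0.0122), Cpt2 (-0.29, adjusted p = 0.0241), Acadl (-0.24, adjusted p = 0.0444) and Pex11a (-0.34, adjusted p = 0.0499). None of these passed in the fit of mice numbered 200 and above alone. The share of all genes called at 200 and above was not counted for the fit over NUL and LAC mice. Cd36, a fatty acid translocase of the plasma membrane, stood between 16.3 and 79.5 TPM in NUL mice, with a median of 24.8, between 35.2 and 136 in LAC mice, with a median of 79.3, and between 27.2 and 37.7 in ID6 mice, with a median of 29.8. In LAC livers it split into 35.2 to 46.8 TPM at 200 and above and 112 to 136 under 200, and in NUL livers into 16.3 to 24.8 and 48.2 to 79.5. Within each range every LAC liver therefore exceeded every NUL liver. The log2 fold change was 1.08 (SE 0.15, adjusted p = 0.000965) at 200 and above, in the fit that includes ID6 mice. It was 0.91 (SE 0.19, adjusted p = 0.0134) under 200, in the fit over NUL and LAC mice only. Over all mice it was 1.12 (SE 0.40, adjusted p = 0.0844), which did not pass.

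Ehhadh, the bifunctional enzyme of peroxisomal beta-oxidation, stood between 157 and 446 TPM in NUL mice, with a median of 193, between 231.9 and 744 in LAC mice, with a median of 435, and between 144 and 198 in ID6 mice, with a median of 177. Its LAC livers held 231.9 to 248 TPM at 200 and above and 622 to 744 under 200, its NUL livers 157 to 193 and 342 to 446. Here too LAC lay above NUL within each range. From the same fits as for Cd36, the differences were 0.40 (SE 0.11, adjusted p = 0.049) at 200 and above and 0.78 (SE 0.11, adjusted p = 0.00216) under 200. Over all mice the difference was 0.67 (SE 0.31, adjusted p = 0.199), which did not pass.

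The other steps of mitochondrial oxidation showed no call between LAC and NUL over all mice. The 4 acyl-CoA dehydrogenases, which open each round for chains of falling length, had mean TPM in NUL, LAC and ID6 of 379, 359.6 and 341 for Acadvl, 165, 159 and 126 for Acadl, 306, 328 and 221.4 for Acadm and 134, 140.5 and 139.9 for Acads, and log2 fold changes from NUL to LAC of -0.08 to 0.09. The electron transfer proteins Etfa, Etfb and Etfdh had means of 394, 362 and 366, 759.7, 686 and 631 and 196, 159 and 154 TPM. Etfdh was the nearest of these to the threshold, at -0.30 (SE 0.10, adjusted p = 0.0666). It passed without LAC_36 and without NUL_220. With range of animal number as a covariate, Etfdh, Etfa (adjusted p = 0.0438) and the thiolase Acaa2 (adjusted p = 0.0406) were called lower.

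**Figure D2:**
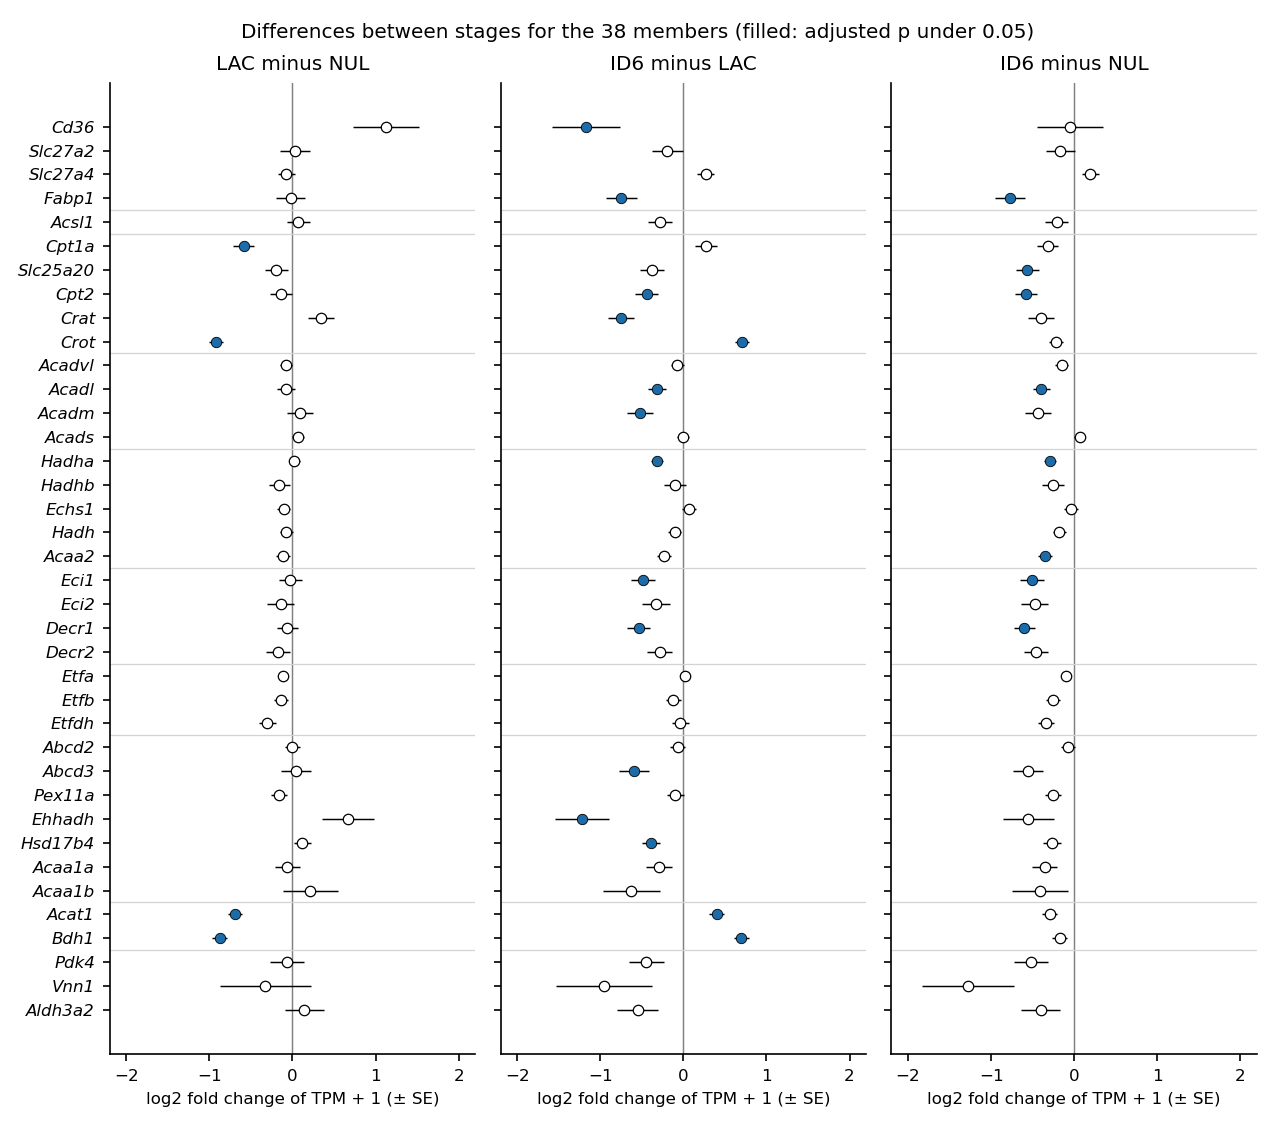
Log2 fold change of TPM + 1 with its SE for each of the 38 genes in the 3 comparisons, grouped by role from uptake (top) to fuel choice and other genes (bottom), with filled points for adjusted p under 0.05 (limma-trend, all 19 mice). At lactation 4 points are filled, all below 0; from LAC to ID6, 3 are filled above 0 and 12 below; from NUL to ID6, 8 are filled, all below 0.

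The next comparison asked what differed after weaning. From LAC to ID6, 3 members were higher and 12 lower, with 2 of the lower ones past 2-fold, as were 0.906% of all genes. Among all genes 18.1% were higher and 4.73% lower. The members, with 7.89% higher and 31.6% lower, leaned the other way from the whole table on TPM without further scaling. Among mice numbered 200 and above, 3 members were higher and 3 lower, beside 10.5% and 3.58% of all genes. The median log2 fold change of the 38 was -0.29, beside 0.10 over all genes. That median over all genes depended on scaling, at 0.0015 with median ratios and 0.01 with quantile normalization. With median ratios, 2 members were higher and 14 lower. Without scaling, the 3 higher genes were Crot, Bdh1 and Acat1, the same enzymes that were lower in LAC than in NUL. Both comparisons use the same 6 LAC mice and are not independent.

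Crot rose by 63.4% from LAC to ID6, a log2 fold change of 0.71 (SE 0.09, adjusted p = 2.4e-05). Bdh1 rose by 63.4%, or 0.70 (SE 0.09, adjusted p = 3.8e-05), and Acat1 by 32.1%, or 0.40 (SE 0.09, adjusted p = 0.00366). In all 3, each ID6 liver lay above each LAC liver, as did 9.30% of all genes. With the mice scaled by median ratios, Acat1 no longer passed (adjusted p = 0.116). Among mice numbered 200 and above the differences were 0.72, 0.72 and 0.53, and all 3 passed.

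The 12 lower genes came from uptake (Cd36, Fabp1), the carnitine shuttle (Crat, Cpt2), the mitochondrial cycle (Acadm, Acadl, Hadha), unsaturated chains (Eci1, Decr1) and peroxisomes (Ehhadh, Abcd3, Hsd17b4). For 4 of them, Ehhadh, Fabp1, Decr1 and Hadha, every ID6 liver lay below every LAC liver, against 2.16% of all genes. The count of 12 genes called lower varied with the mice included. It was 6 without LAC_36, LAC_102 or LAC_133, 7 without ID6_216 and 3 among mice numbered 200 and above. Without the 5 mice with muscle markers it was 2, Crat and Hadha, in a fit with fewer mice. For the fits without single mice or those 5 mice, the share of all genes called was not counted. The part of muscle RNA in these differences was not tested.

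Ehhadh fell by 62.2% from LAC to ID6, with a log2 fold change of -1.22 (SE 0.32, adjusted p = 0.0102). All 6 ID6 livers lay below the lowest LAC liver and overlapped the lower NUL livers. At 200 and above the difference was smaller, -0.48 (SE 0.11, adjusted p = 0.00808), and it still passed. Cd36 fell by 62%, or -1.17 (SE 0.41, adjusted p = 0.047). At 200 and above it did not pass, at -0.39 (SE 0.14, adjusted p = 0.0759).

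Fabp1 stood between 7759.8 and 16340.2 TPM in NUL mice, with a median of 9760.1, between 7831 and 13704 in LAC mice, with a median of 10629.9, and between 4896 and 7035 in ID6 mice, with a median of 6437. The means were 10965 ± 3215, 10662 ± 2477 and 6249 ± 755 TPM, and no ID6 liver reached the lowest liver of either other stage. Fabp1 fell by 41.4% from LAC, a log2 fold change of -0.75 (SE 0.19, adjusted p = 0.00709). It also passed at 200 and above, with -0.46 (SE 0.13, adjusted p = 0.0277), but not without the 5 mice with muscle markers (adjusted p = 0.0601). NUL and LAC means differed by only -0.02 on the log2 scale, with overlapping values.

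Crat, the carnitine acetyltransferase that buffers acetyl groups, stood between 30.6 and 50.4 TPM in NUL mice, with a median of 33.5, between 39.7 and 60.1 in LAC mice, with a median of 51.3, and between 22.4 and 42.7 in ID6 mice, with a median of 27, with means of 39.5 ± 8.86, 50.1 ± 8.04 and 29.8 ± 7.59 TPM. One ID6 liver overlapped the lower LAC livers, and the other ID6 livers lay below them. The difference of -0.75 (SE 0.16, adjusted p = 0.0024) was kept under all 11 alternative settings and every omission of 1 mouse. From NUL to LAC the difference was 0.35 (SE 0.16, adjusted p = 0.18). In the fit over NUL and LAC mice only, it was 0.72 (SE 0.16, adjusted p = 0.0186) under 200. At 200 and above it was 0.04 (SE 0.15, adjusted p = 0.939) in that fit. The direct test between the ranges, at -0.69 (SE 0.22, adjusted p = 0.23), did not pass.

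Abcd3, a peroxisomal importer of acyl-CoA, ranged over 119.7 to 214 TPM in NUL (median 145), 116 to 243 in LAC (median 160.2) and 92 to 119 in ID6 (median 111). ID6 livers stood at the low end of LAC livers and below all NUL livers. The log2 fold change from LAC was -0.60 (SE 0.18, adjusted p = 0.0245), and at 200 and above -0.22 (SE 0.10, adjusted p = 0.161). Hsd17b4, the second bifunctional enzyme of peroxisomes, had means of 209.6, 228 and 172 TPM in NUL, LAC and ID6 and a change from LAC of -0.39 (SE 0.11, adjusted p = 0.0157), which did not pass at 200 and above, at -0.19 (SE 0.08, adjusted p = 0.141), or with the range as a covariate.

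Decr1 and Eci1 are mitochondrial enzymes that prepare unsaturated chains for oxidation. Decr1 ranged over 61.5 to 98.7 TPM in NUL (median 78.3), 57.6 to 97.5 in LAC (median 77.8) and 49.1 to 56.8 in ID6 (median 52). Its means were 80.5 ± 14.2, 77.9 ± 18.3 and 52.1 ± 2.75 TPM, with all ID6 livers below both other stages. The log2 fold changes were -0.54 (SE 0.14, adjusted p = 0.00769) from LAC and -0.60 (SE 0.13, adjusted p = 0.0184) from NUL. Eci1 ranged over 153 to 214 TPM in NUL (median 185), 134 to 232.2 in LAC (median 179.7) and 108 to 136 in ID6 (median 131). Its means were 182 ± 26.5, 183 ± 50.4 and 127 ± 10.9 TPM, and ID6 livers lay below all NUL livers but overlapped the LAC livers of 200 and above. The changes were -0.48 (SE 0.15, adjusted p = 0.0232) and -0.51 (SE 0.14, adjusted p = 0.0475). From LAC, neither passed at 200 and above, where Decr1 was at -0.23 (SE 0.08, adjusted p = 0.059) and Eci1 at -0.12 (SE 0.09, adjusted p = 0.439), or without the 5 mice with muscle markers, and Eci1 did not pass with the range as a covariate.

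Acadm, the medium-chain acyl-CoA dehydrogenase, ranged over 243 to 444 TPM in NUL (median 277), 228 to 408 in LAC (median 337) and 213.1 to 243 in ID6 (median 215.8), with means of 306 ± 72.4, 328 ± 86 and 221.4 ± 11.6 TPM. LAC livers under 200 held 401 to 408 TPM and those at 200 and above 228 to 273, and the 6 ID6 livers lay close to the latter. The difference from LAC was -0.52 (SE 0.16, adjusted p = 0.0232) over all mice and -0.18 (SE 0.07, adjusted p = 0.132) at 200 and above.

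**Figure D3:**
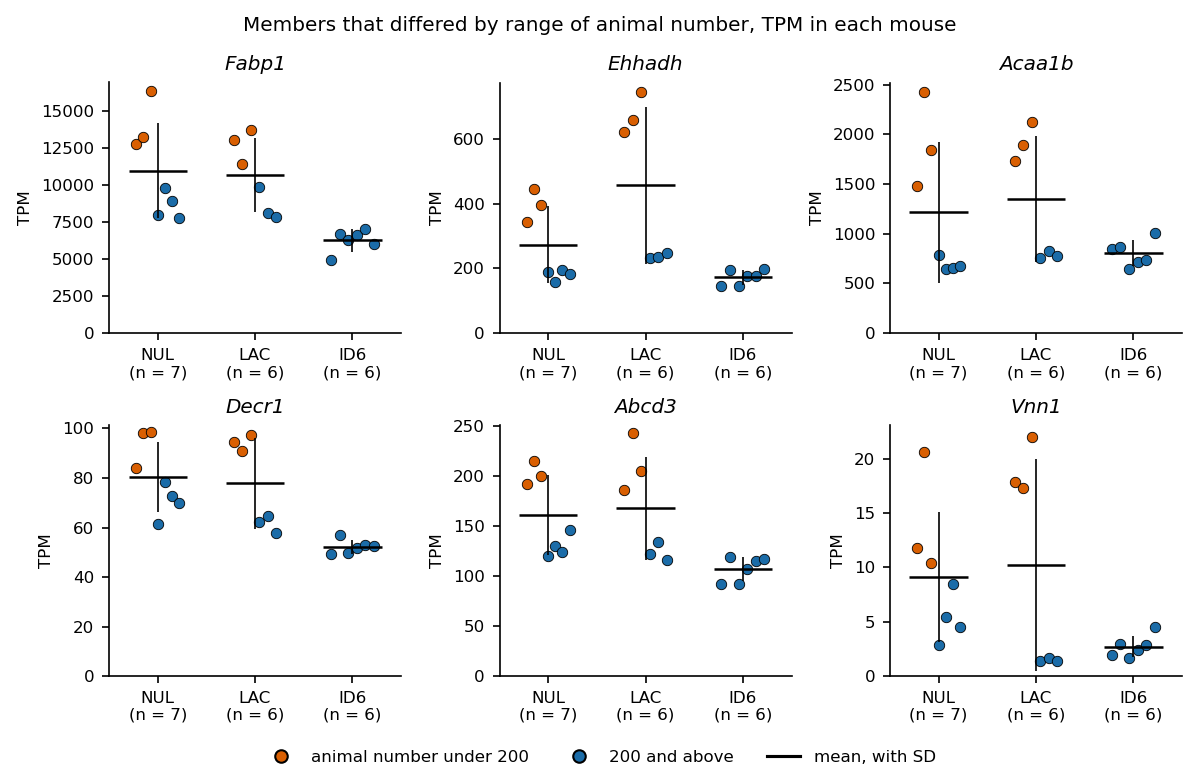
TPM (linear axis from 0) of 6 genes in each mouse, by stage, with orange points for animal numbers under 200, blue points for 200 and above, and lines for the mean with the SD. In NUL and LAC mice the orange points lie above the blue ones for all 6 genes. For the genes other than Vnn1, the ID6 mice, all blue, lie near or below the blue NUL and LAC points. For Vnn1 the ID6 mean lies above the blue LAC points.

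Relative to NUL mice, 8 members were lower at ID6 and 0 higher (limma-trend, with 0 also higher at an unadjusted p under 0.05). Of all genes 0.912% were lower and 3.44% higher, beside 21.1% of the members lower. The 8 were Fabp1, Decr1, Cpt2, Slc25a20, Eci1, Acadl, Acaa2 and Hadha, and all but Fabp1 act inside mitochondria. Of the 38 estimates 36 lay below 0, with a median of -0.33 beside 0.07 over all genes. The median over all genes was -0.004 with median-ratio scaling and 0.007 with quantile normalization. No member was called and past 2-fold, beside 0.253% of all genes. For 8 members, Abcd3 and Acadm in place of Slc25a20 and Acadl, each ID6 liver lay below each NUL liver, a separation found in 0.542% of all genes.

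The count of members called lower at ID6 than in NUL depended on the mice used. It was 1 without NUL_4 or NUL_13, 2 without NUL_1 or ID6_216, 3 without ID6_201, 5 without ID6_218, ID6_230 or ID6_232, and 11 at most with another mouse left out. Without the 5 mice with muscle markers, in a fit with fewer mice, it was 0, with 15 at an unadjusted p under 0.05 (limma-trend). At 200 and above it was 3, namely Decr1, Cpt2 and Eci1, beside 0.324% of all genes. Cd36 was the 1 member higher there, beside 0.473%. For the fits without single mice or those 5 mice, the share of all genes called was not counted. All ID6 mice are numbered 200 and above, so stage and range cannot be told apart between them and the lower-numbered mice.

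Fabp1 fell by 43% from NUL to ID6, or -0.77 (SE 0.18, adjusted p = 0.024). Cpt2, the inner mitochondrial carnitine palmitoyltransferase, ranged over 76.4 to 112 TPM in NUL (median 93.6), 66.5 to 110.0 in LAC (median 88.3) and 52.7 to 75.4 in ID6 (median 63.8). Its means were 95.5 ± 14.7, 88 ± 21.3 and 63.2 ± 7.51 TPM, with every ID6 liver below every NUL liver. Its log2 fold change from NUL was -0.58 (SE 0.13, adjusted p = 0.0239), with -0.42 (SE 0.09, adjusted p = 0.0431) at 200 and above. Slc25a20, the translocase that carries acylcarnitines across the inner membrane, ranged over 46.7 to 80.7 TPM in NUL (median 63.3), 43.5 to 73.4 in LAC (median 56.9) and 38.6 to 49.7 in ID6 (median 41.2), with means of 65.4 ± 11.3, 57.7 ± 14 and 43.4 ± 4.7 TPM. ID6 livers overlapped the lowest NUL liver, and the change was -0.57 (SE 0.14, adjusted p = 0.03).

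The remaining 3 were enzymes of the mitochondrial cycle. Acadl, the long-chain dehydrogenase, ranged over 147 to 185 TPM in NUL (median 164), 120.2 to 192 in LAC (median 159) and 109 to 148 in ID6 (median 125), with means of 165 ± 14.9, 159 ± 31.2 and 126 ± 14.6 TPM. It barely overlapped between ID6 and NUL, and its change was -0.39 (SE 0.11, adjusted p = 0.0454). Acaa2, the thiolase of the last step, ranged over 726 to 1012 TPM in NUL (median 761), 683 to 866 in LAC (median 750.1) and 633 to 685 in ID6 (median 645), with means of 837 ± 119.6, 767 ± 74.1 and 652 ± 20.6 TPM. Hadha, the larger subunit of the trifunctional protein, ranged over 179 to 225 TPM in NUL (median 199), 180.3 to 224 in LAC (median 204) and 148 to 175 in ID6 (median 162), with means of 199 ± 16.1, 202 ± 19.1 and 162 ± 10.6 TPM. All ID6 livers lay below all NUL livers in both, with changes of -0.35 (SE 0.08, adjusted p = 0.0281) and -0.29 (SE 0.07, adjusted p = 0.0235). Hadhb, its partner subunit, had means of 220.2, 196 and 183 TPM and a change of -0.26 (SE 0.13, adjusted p = 0.219). Crot, Bdh1 and Acat1 differed from NUL by -0.22, -0.17 and -0.29 at ID6, none past the threshold over all mice. Acat1 passed with median-ratio scaling, with a filter at 1 TPM and without NUL_220, and Crot without NUL_220.

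Of the 38 members 18 were called in at least 1 comparison and 20 in none, beside 25.8% of all genes called in at least 1. Uncalled in uptake and activation were Slc27a2 and Slc27a4, transporters with acyl-CoA synthetase activity, with mean TPM in NUL, LAC and ID6 of 597, 628 and 530.3 and 14.4, 13.7 and 16.6, and the synthetase Acsl1 with 278, 296 and 239. The hydratase Echs1 had means of 237, 219.8 and 229.7, the dehydrogenase Hadh 263, 250.2 and 233, the isomerase Eci2 233, 212 and 165 and the peroxisomal reductase Decr2 77.6, 70 and 56.3. The peroxisomal importer Abcd2 had means of 23.8, 23.8 and 22.7, the peroxisome division factor Pex11a 44.4, 39.6 and 37.1, the thiolases Acaa1a 197, 191 and 152 and Acaa1b 1214, 1351 and 802, and the fatty aldehyde dehydrogenase Aldh3a2 258, 295 and 192. Acaa1a and Acaa1b transcripts are 96.0% identical over 1450 aligned bases, so the division of reads between them is uncertain. Pdk4 had means of 9.15, 8.19 and 5.85 and Vnn1 of 9.14, 10.3 and 2.71 TPM.

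Within NUL and LAC mice, the range of animal number went with larger differences than lactation did in many members. With stage in the model, 27 of the 38 were lower and 1, Slc27a4, higher at 200 and above than under 200, beside 9.14% and 16.4% of all genes. Vnn1, Cd36, Acaa1b, Ehhadh, Aldh3a2 and Abcd3, named here after their values were seen, had the largest differences. Vnn1 held 17.3 to 22 TPM in LAC mice under 200 and 1.35 to 1.63 in those above, and 10.4 to 20.6 against 2.84 to 8.44 in NUL mice. Acaa1b held 1733 to 2126 against 751 to 828 TPM in LAC and 1479.6 to 2425 against 646 to 782 in NUL mice. In both genes the ranges did not overlap within either stage. The log2 differences, 200 and above minus under 200, were -2.09 (SE 0.30, adjusted p = 0.000302) for Vnn1, -1.66 (SE 0.13, adjusted p = 1.44e-06) for Cd36, -1.37 (SE 0.10, adjusted p = 1.21e-06) for Acaa1b and -1.29 (SE 0.09, adjusted p = 4.92e-07) for Ehhadh. They were -0.90 for Aldh3a2, -0.69 for Abcd3 and -0.64 for Fabp1.

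The 10 members not called between the ranges included the 4 that were lower at lactation, Crot, Bdh1, Acat1 and Cpt1a, at -0.01, -0.09, -0.11 and -0.20. The others were Crat, Acads, Hadhb, Abcd2, Pex11a and Pdk4. Whether the lactation difference itself varied with range was tested as an interaction, and 0 members passed (limma-trend), with 13 at an unadjusted p under 0.05 and 0.111% of all genes called. Vnn1 came nearest, with an interaction of -1.73 (SE 0.39, adjusted p = 0.137).

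**Figure D4:**
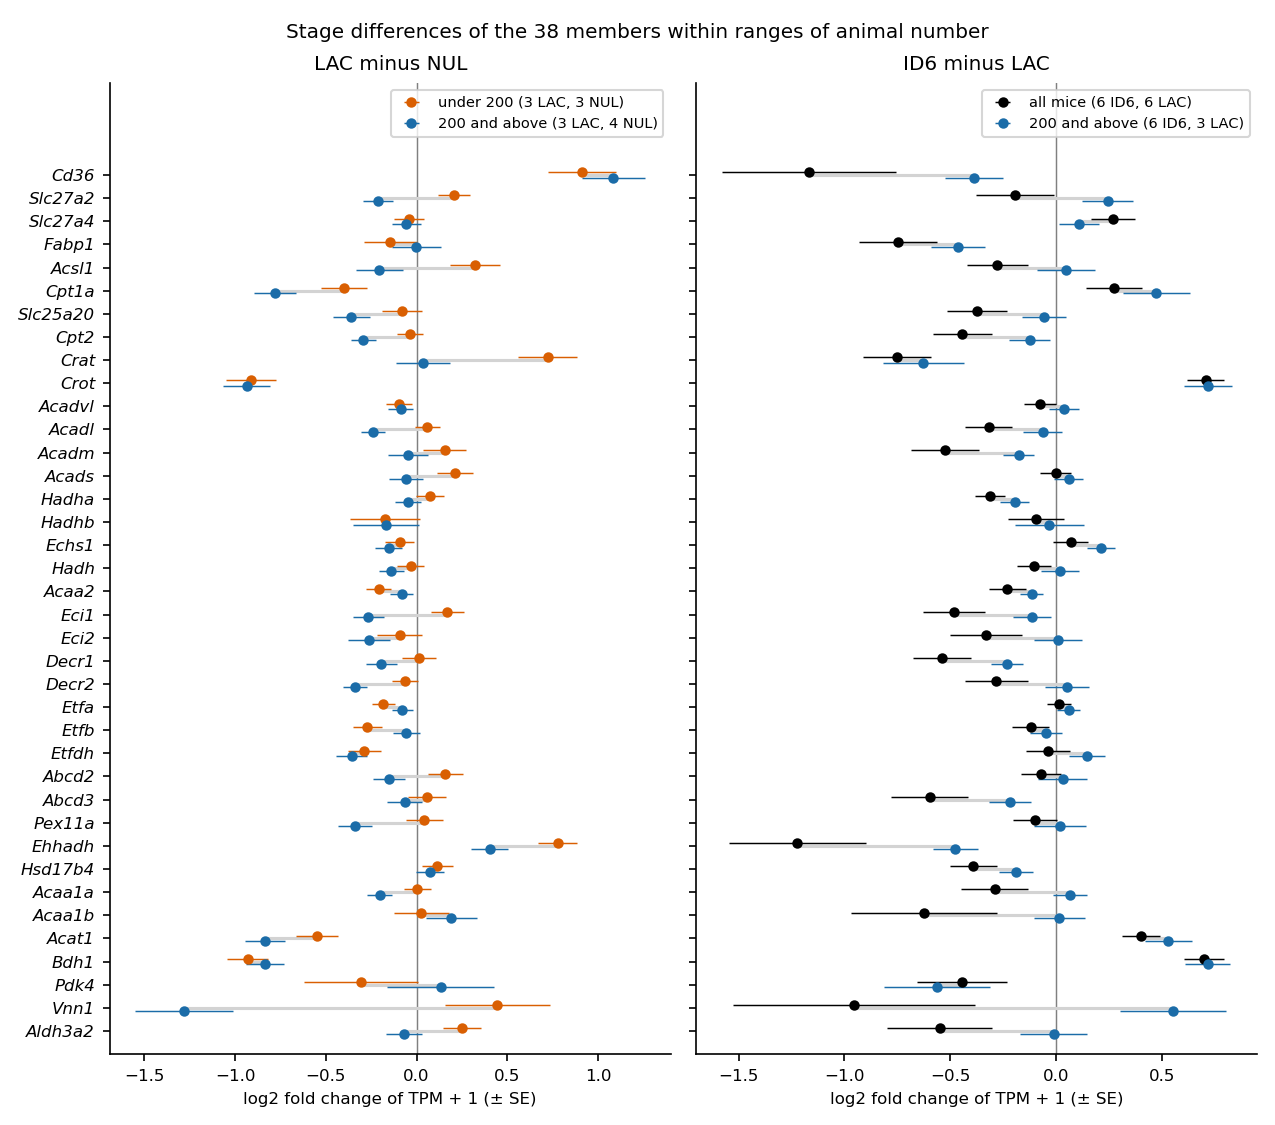
Log2 fold change of TPM + 1 with its SE for the 38 genes. The left panel gives LAC minus NUL within each range of animal number, the right panel ID6 minus LAC over all mice and among those numbered 200 and above, with a grey line joining each pair. Crot, Bdh1, Acat1 and Cpt1a lie below 0 in both ranges on the left; on the right, most genes below 0 over all mice lie nearer 0 among mice numbered 200 and above.

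Other measures also moved with the ranges. Summed Kupffer cell markers (5 genes) were 146 to 186 TPM under 200 and 231.6 to 279.8 at 200 and above in NUL mice, and 94.7 to 133.2 and 141 to 200.2 in LAC mice. The summed hepatocyte markers, mostly Alb, were also lower under 200, at 99818 to 110262 against 125963 to 147466 in LAC mice, the opposite direction to most members. In NUL mice they were 60247 to 72882 under 200 and 72271 to 93805 at 200 and above, which overlapped. Of the 5 mice with muscle markers, 4 were numbered under 200, and the fifth was ID6_230. NUL_13, also under 200, had 0.02 TPM of muscle markers and the highest Fabp1 of the series. Without Fabp1, the members' share of all TPM was highest in NUL_4, which had muscle markers, at 1.21% against 1.07% in NUL_13. The part of muscle RNA in the differences between ranges was not tested.

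Between stages, 4 of the 5 Kupffer markers were lower in LAC than in NUL, and all 5 were higher at ID6 than at either other stage, with sums of 146 to 279.8, 94.7 to 200.2 and 323 to 463 TPM in NUL, LAC and ID6. The 3 red blood cell markers that could be tested were lower at ID6 than at both other stages. Their part in the members' differences was not tested. Of 5 sinusoidal endothelial markers, 1 was lower in LAC than in NUL and 3 were higher at ID6 than in LAC; the same counts were 2 and 1 for 5 stellate cell markers and 1 and 1 for 5 cholangiocyte markers. No adipocyte, muscle or pancreas marker was called in any comparison (limma-trend).

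A list of 42 other genes of the pathway was tested in the same fit. At lactation 7 were higher and 2 lower, beside 2.72% and 6.49% of all genes. Acacb, which makes the malonyl-CoA that inhibits Cpt1, rose by 199% from a mean of 10.3 to 30.9 TPM (adjusted p = 0.000455). Also higher were the acyl-CoA synthetases Acsl3 (0.93), Acsl4 (0.98) and Acsl5 (0.51), the peroxisomal isomerase Eci3 (1.91), the lyase Hacl1 (0.35) and Pdk1 (0.69). Among the lower ones was Scp2, a peroxisomal thiolase and sterol carrier, at -0.46 (SE 0.08, adjusted p = 0.000772).

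From LAC to ID6, 1 of the 42 was higher, Scp2 at 0.58 (SE 0.08, adjusted p = 4.87e-05), and 14 were lower, beside 18.1% and 4.73% of all genes. Eci3 (-2.49), Acacb (-1.27), Acsl3 (-0.74), Acsl5 (-0.70) and Acsl4 (-0.57), which were higher at lactation, were among them, in a comparison with the same LAC mice. So were the carnitine transporter Slc22a5 (-0.63), Pdk2 (-0.51), Hacl1 (-0.51), the isomerase Ech1 (-0.50) and Acox2 (-0.50). From NUL to ID6, Slc27a5, the bile acid and fatty acid CoA ligase, was higher by 0.58 (SE 0.15, adjusted p = 0.0399), and Slc22a5 and Ech1 were lower, at -0.69 (SE 0.18, adjusted p = 0.0417) and -0.68 (SE 0.17, adjusted p = 0.0335). None of these 3 passed at 200 and above. Ppara itself had means of 31.1 ± 3.03, 23.2 ± 6.96 and 24.4 ± 6.56 TPM in NUL, LAC and ID6 and was called in no comparison.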

How the data were processed

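Poly(A) libraries from 19 livers were sequenced as paired ends. Per the submitters' processing notes and the study's methods, the authors quantified genes with RSEM 1.3.1 on GRCm38 and deposited TPM values with no read counts. The aligner is not given in the sources used here. RSEM divides shared reads by expectation, so near-identical paralogs are uncertain, and TPM keep no depth, so precision comes only from the spread between mice. Values were identical in 0 of the 171 pairs of animals. The authors' DESeq2 test needs counts and was not repeated.

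From the deposited TPM, log2(TPM + 1) was tested with limma-trend (limma 3.58.1, R 4.3.3), one mean per stage, all 19 mice, with Benjamini-Hochberg adjustment over the 16230 genes averaging 0.1 TPM or more. A gene was called at adjusted p under 0.05, and a fold of 2 was counted beside it. "Higher", "lower", "rose" and "fell" refer to called genes; for others values are given. Range of animal number was fitted over NUL and LAC mice only. The method was tested on simulated data, with 200 of 16230 genes changed between LAC and NUL. It recovered 106 of them at a true log2 change of 0.5 and 180 at 1, and called 5 and 8 unchanged genes. The simulated data held no difference between ranges of animal number. Promoters were searched in Python 3.11.15 with pandas 2.3.3, paralog transcripts (GENCODE, GRCm38) were aligned with Biopython 1.88, and figures were drawn with matplotlib 3.10.9.

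The members, lists and ranges were chosen with earlier results of these data known. Values in every stage are given for the 10 members with the largest changes among those called in each comparison, and other pathway genes are named where a called change was at least 0.5 (log2). Some genes of that list are counted but not reported here by name. Alternatives were a pseudocount of 0.1 or 0.5, no low-value filter or one at 1 TPM, fits of only the 2 stages in question, scaling by median ratios or quantiles, robust moderation, a term for range of animal number, a fit of the mice numbered from 200 up, and omission of each mouse. Omission of the 5 mice with muscle markers above 1 TPM was added after seeing the data.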

Additional observations from a re-analysis of the deposited data

How the results depend on the processing

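With range of animal number as a covariate, 2 members were higher and 7 lower from NUL to LAC (0 and 4 as reported), 5 lower from LAC to ID6 (12 as reported), and 1 higher and 4 lower from NUL to ID6 (reported 0 and 8). With only mice numbered 200 and above, 2 were higher from NUL to LAC, 3 lower from LAC to ID6, and 1 higher and 3 lower from NUL to ID6. Cd36 changed direction from NUL to ID6, from -0.05 to 0.66 with the covariate (adjusted p = 0.0119) and to 0.70 among mice numbered 200 and above (adjusted p = 0.0193). Without the 5 mice with muscle markers, 2 were lower from LAC to ID6 and 0 from NUL to ID6, a fit with fewer mice. Without a filter on low values, 4 were lower from NUL to ID6. Except at 200 and above, the share of all genes called was not counted under the settings of this section. The counts here therefore describe only the members and the other pathway genes.

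With each mouse left out in turn, 0 to 1 members were higher and 4 to 5 lower from NUL to LAC, 3 to 4 higher and 6 to 14 lower from LAC to ID6, and 0 higher and 1 to 11 lower from NUL to ID6. Other settings kept these counts within 1.5 times of the reported ones, as well as the 28 members called between ranges and the 0 called for the interaction. The cause of the differences between settings was not tested. No paired analysis was possible because the groups share no animal numbers.

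Of the other pathway genes, with the covariate 4 were lower from NUL to LAC (reported 2), 3 higher and 9 lower from LAC to ID6 (reported 1 and 14), and 0 higher and 1 lower from NUL to ID6 (reported 1 and 2). At 200 and above, 4 were lower from NUL to LAC, 4 higher and 6 lower from LAC to ID6, and 0 lower from NUL to ID6 (6 at an unadjusted p under 0.05, limma). Without a filter 0 were higher and 0 lower from NUL to ID6 (5 and 10 unadjusted), and with median-ratio scaling 0 were higher (2 unadjusted). TPM hold no depth, so the limit of detection is unknown.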
